A study of Mus musculus with 24 samples.

Results

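Bone marrow-derived macrophages (BMDMs) cultured in medium conditioned by NRF2 KO lung cancer cells were compared here with BMDMs in control media, both with vehicle. The comparison rests on 6 of the 24 RNA-seq libraries of the series, all libraries labelled NRF2 KO/vehicle (n = 3) and media/vehicle (n = 3). All 35770 gene names of the table were looked up and 13661 passed a filter of more than 1 TPM in at least 3 of the 24 libraries. TPM is the share of a library's transcripts that a gene takes, corrected for transcript length and set to the same total in every library. The BMDMs came from C57BL/6 mice, were grown with 20 ng/mL M-CSF for 5 days and a further 48 h, and were not themselves edited. NRF2 KO refers to the tumor cells that conditioned the medium: LL2 is a Lewis lung carcinoma line of the mouse, and its NRF2 gene was knocked out by CRISPR. Conditioned medium (CM) was collected after 48 h and given as 75% CM with fresh medium, whereas media/vehicle BMDMs received medium from a plate without cancer cells. Exposure lasted 24 h. BMDMs in WT CM (WT/vehicle) and in CM from KEAP1 KO LL2 cells (KEAP1 KO/vehicle), 3 libraries each, had the same exposure and served as the other tumor media. The remaining 12 libraries received 100 nM CDDO-Me and entered only the gene filter, the scaling and the estimate of the spread. The shares of all genes given below therefore also depend on them. The labels call the 3 samples of a group independent but do not say whether they came from separate mice, so p-values measure the spread between these samples.

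Macrophages read their surroundings and change their transcription to match. Interleukin-4 and interleukin-13, acting through the receptor subunit IL-4Ra and the transcription factor STAT6, induce the alternative activation program, whose mouse hallmarks are Arg1, Retnla, Chil3 and Mrc1. Interferons act through other STAT factors and induce the antiviral genes and the guanylate-binding and immunity-related GTPases. NRF2, encoded by Nfe2l2, is the transcription factor of the oxidative stress response, and KEAP1 marks it for degradation. The question of the comparison is how far the medium of tumor cells without NRF2 moves naïve macrophages.

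For the genes on which the results turn, the 250 bases upstream of the annotated start are given below in GRCm38.p6 coordinates, from RefSeq, 5′ to 3′ on the strand of the gene. They are the 1 gene that passed the test (Nxpe5), a GTPase with an interferon-type motif (Gbp7), a mitotic gene (Depdc1a) and an alternative activation gene at 0 in these groups (Retnla). Capitals mark the motifs searched on both strands: GAAA and GAAA with any 2 bases between (an interferon-stimulated response element), TTC and GAA with any 4 bases between (a STAT6-type site), TTTGAA (a cell cycle homology region) and CCAAT. No match lay in the Nxpe5 window.
Nxpe5, chr5:138225654-138225903, plus strand: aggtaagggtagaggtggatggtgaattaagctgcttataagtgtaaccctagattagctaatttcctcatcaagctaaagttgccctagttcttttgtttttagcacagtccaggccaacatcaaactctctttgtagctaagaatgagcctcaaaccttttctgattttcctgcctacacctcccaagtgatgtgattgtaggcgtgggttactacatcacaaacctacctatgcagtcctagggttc
Gbp7, chr3:142530086-142530335, plus strand: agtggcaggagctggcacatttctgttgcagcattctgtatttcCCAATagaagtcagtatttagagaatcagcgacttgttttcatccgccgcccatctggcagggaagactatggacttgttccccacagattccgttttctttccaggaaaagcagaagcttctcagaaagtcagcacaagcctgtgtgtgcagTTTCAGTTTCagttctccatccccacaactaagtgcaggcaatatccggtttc
Depdc1a, chr3:159495183-159495432, plus strand: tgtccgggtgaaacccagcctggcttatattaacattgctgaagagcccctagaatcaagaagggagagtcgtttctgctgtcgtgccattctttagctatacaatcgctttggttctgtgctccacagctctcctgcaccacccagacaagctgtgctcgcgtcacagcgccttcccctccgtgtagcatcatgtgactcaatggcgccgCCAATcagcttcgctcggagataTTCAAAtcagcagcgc
Retnla, chr16:48842359-48842608, plus strand: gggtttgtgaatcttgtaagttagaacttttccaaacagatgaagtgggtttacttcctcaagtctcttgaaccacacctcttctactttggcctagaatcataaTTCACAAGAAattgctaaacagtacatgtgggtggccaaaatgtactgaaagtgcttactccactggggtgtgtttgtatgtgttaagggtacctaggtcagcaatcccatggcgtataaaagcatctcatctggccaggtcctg

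The third NRF2 KO/vehicle library stood apart from the other vehicle libraries. It listed 15702 genes above 0 TPM, against 17880 to 18625 in the other vehicle libraries, and its 13 mitochondrially encoded genes took 9.87% of all TPM, against 2.50% to 3.33%. Its median correlation with its own group over genes was 0.906, while replicates 1 and 2 had 0.948 and 0.945. The latter values include the correlation with replicate 3, and replicates 1 and 2 correlated by 0.986 with each other. Counting genes more than 1 log2 unit away from the media/vehicle mean gave 173, 278 and 3308 of 13661 in NRF2 KO/vehicle replicates 1, 2 and 3. WT/vehicle libraries had 625 to 894 such genes and KEAP1 KO/vehicle libraries 589 to 801. Each media/vehicle library was instead set against the mean of the other media/vehicle libraries, which gave 159 to 303 genes. The counts of replicates 1 and 2 lay within that range, but the reference of the media libraries was a mean of fewer libraries. Replicate 3 also differed by the GC content of transcripts. Its median log2 difference was 0.49 in the lowest of 4 equal bins of genes by GC content (median 43.4%) and -0.80 in the highest (57.3%), while the bins of replicates 1 and 2 lay between -0.02 and 0.02. The counts over all genes and most list medians are therefore given with replicate 3 and without it. Summed levels, their permutation tests, and list members counted without overlap or in direct tests are given with it only. All 12 macrophage markers were tested, and their summed level was 37480 to 38650 TPM in media/vehicle and 41520, 36680 and 30830 TPM in NRF2 KO/vehicle.

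**Figure D1:**
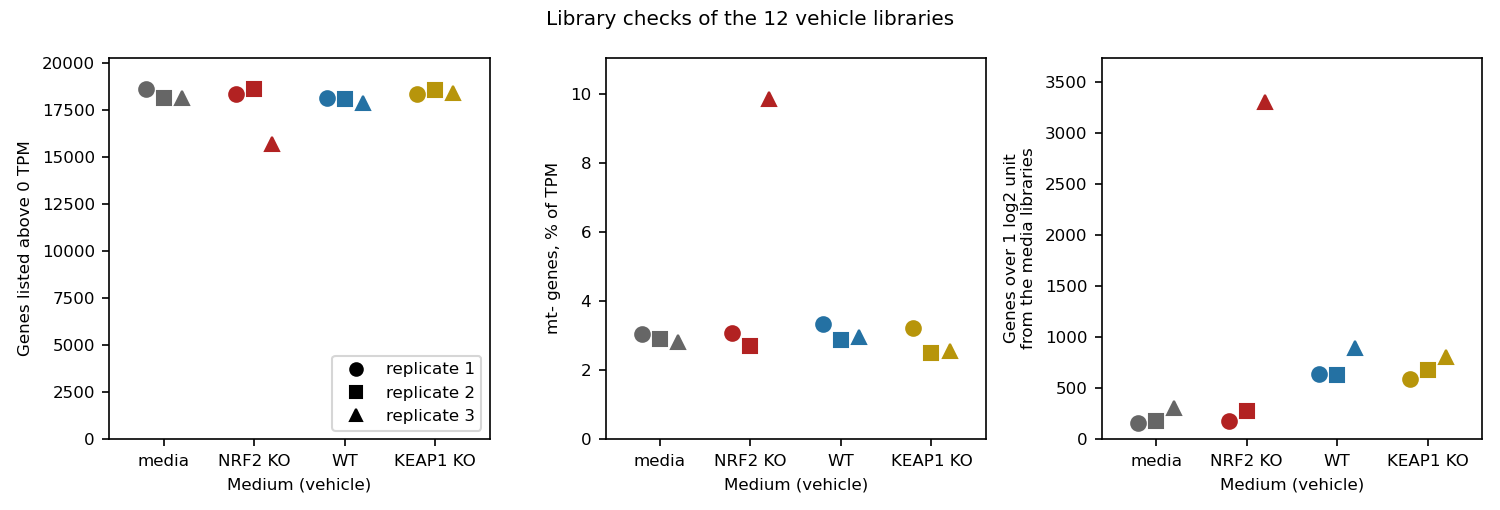
Genes listed above 0 TPM (left), the percentage of TPM from mitochondrially encoded genes (middle) and the number of genes over 1 log2 unit from the media/vehicle mean (right) in the 12 vehicle libraries, 1 point per library. In the right panel each media/vehicle library is set against the mean of the other media/vehicle libraries. NRF2 KO/vehicle replicate 3 has 15702 genes, 9.87% and 3308 genes, and lies outside the other 11 libraries in each panel.

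**Figure D2:**
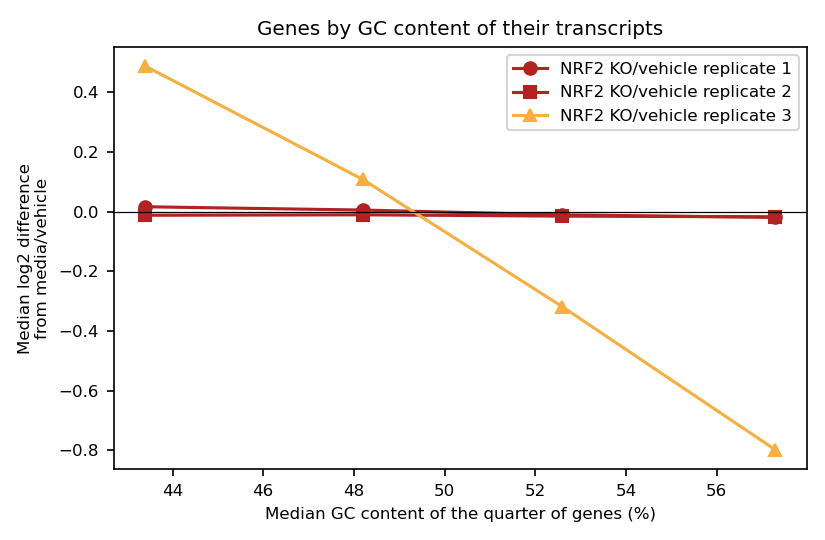
Median log2 difference of each NRF2 KO/vehicle library from the media/vehicle mean (vertical axis) in 4 equal bins of 13640 genes ordered by transcript GC content (horizontal axis, median of each bin in percent). Replicate 3 runs from 0.49 to -0.80, and replicates 1 and 2 stay near 0.

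A single gene passed the test of NRF2 KO CM against control media. With limma on log2(TPM + 1), scaled by TMM and with Benjamini-Hochberg adjustment, 1 of 13661 genes (0.00732%) had an adjusted p under 0.05, and it was higher in NRF2 KO CM. Without replicate 3, 1 of 13602 genes (0.00735%) passed, the same gene. At an unadjusted p under 0.05 there were 1649 genes (12.1%), 595 higher (4.36%) and 1054 lower (7.72%). Without replicate 3 there were 469 (3.45%), 242 higher (1.78%) and 227 lower (1.67%). The median size of the fitted log2 difference over all genes was 0.22 with replicate 3 and 0.11 without it, and 214 and 126 genes exceeded 1. In the same fit with all libraries, 988 genes (7.23%) passed for WT/vehicle and 1101 (8.06%) for KEAP1 KO/vehicle, each against the same media/vehicle libraries.

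The gene was Nxpe5, a member of the neurexophilin and PC-esterase domain family, on chromosome 5 (GRCm39, 138224160 to 138251625, plus strand, protein-coding). Its level was 33.2, 30.7 and 33.5 TPM in the media/vehicle libraries and 79.2, 63.6 and 55.4 TPM in NRF2 KO/vehicle (32.5 ± 1.53 against 66.0 ± 12.1, SD, n = 3 each). Every NRF2 KO/vehicle library was above every media library. The log2 fold change was 0.99 with a standard error (SE) of 0.15 (adjusted p = 0.026, limma), and 1.06 (SE 0.16) without replicate 3 (adjusted p = 0.038, limma). The call did not hold when any media replicate, or NRF2 KO replicate 1 or 2, was left out, and it was also lost without scaling, with the compared groups alone and with the vehicle groups alone. The log2 fold change stayed between 0.86 and 1.06 over the libraries left out. In the other tumor media Nxpe5 was higher still, at 140.3, 120.6 and 99.6 TPM in WT/vehicle and 131.2, 129.8 and 124.6 TPM in KEAP1 KO/vehicle. NRF2 KO/vehicle was lower than WT/vehicle by a log2 difference of -0.92 (adjusted p = 0.00031, limma) and than KEAP1 KO/vehicle by -0.96 (adjusted p = 0.0002, limma). Its 3 libraries lay between control media and the other tumor media without overlap on either side. Both direct differences also passed without replicate 3, as did those from WT/vehicle given below for Gda, Arg1, Il4ra, Rtp4, Ifit1, H2-DMb1, Abca1, Apoc2, Ccl12, Ccl3 and Pilrb1.

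The next genes in order of unadjusted p with a mean of at least 5 TPM and no overlap of libraries did not pass the adjusted threshold, and are given by their values. Over all genes, 767 (5.61%) lay without overlap above media/vehicle and 1057 (7.74%) below. Without replicate 3, where a lack of overlap is easier to reach, these were 1567 (11.5%) and 1786 (13.1%). Gda, the guanine deaminase of purine breakdown, measured 8.74, 8.13 and 6.37 TPM in media/vehicle and 14.4, 15.2 and 13.1 TPM in NRF2 KO/vehicle, with close values in all 3 libraries of each group. Its log2 fold change was 0.80 (SE 0.18, adjusted p = 0.33, limma). WT/vehicle reached 105.4 to 109.7 TPM and KEAP1 KO/vehicle 110.7 to 118.6 TPM, and Gda in NRF2 KO CM was lower than in WT CM by -2.90 log2 units (adjusted p = 9.0e-10, limma). Man1a, a mannosidase of N-glycan processing, had the same order of groups. It measured 56.7, 50.7 and 52.8 TPM in media, 78.5, 70.4 and 81.0 TPM in NRF2 KO CM and 168.6 to 190.9 TPM in WT CM. Golm1, a Golgi membrane protein, was tightly grouped at 8.54, 8.47 and 8.13 TPM against 12.9, 13.2 and 13.8 TPM.

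Several of these genes had their highest or lowest value in replicate 3. Ctsc, the lysosomal protease cathepsin C, measured 151.7, 166.5 and 136.9 TPM in media/vehicle and 243.8, 220.2 and 277.8 TPM in NRF2 KO/vehicle. Ifitm6, of the interferon-induced transmembrane family, measured 9.81, 7.05 and 9.80 TPM against 28.1, 17.1 and 39.4 TPM (log2 fold change 1.5, adjusted p = 0.33, limma). Pf4, the chemokine platelet factor 4, measured 74.6, 98.0 and 123.2 TPM against 189.4, 185.0 and 213.4 TPM. Ctla2a, a cathepsin inhibitor, was at 5.82, 5.68 and 5.13 TPM against 11.3, 32.9 and 12.3 TPM, and here replicate 2 was the highest. Among the lower genes the values of Galns, a lysosomal sulfatase that degrades keratan sulfate, were the most even in media, at 59.8, 58.9 and 59.7 TPM, against 48.8, 48.1 and 34.2 TPM. Arhgap25, a GTPase-activating protein of phagocytes, measured 202.4, 231.1 and 259.2 TPM against 160.0, 165.9 and 131.8 TPM. The kinase Cdk18 measured 197.3, 175.2 and 184.0 TPM against 148.9, 141.1 and 92.0 TPM. For Nat9, an N-acetyltransferase, replicate 3 was far below its group, at 12.2 TPM beside 37.1 and 33.0 TPM, with 52.2, 49.5 and 46.4 TPM in media. All 10 lower genes named by this rule had their lowest value in replicate 3. The fitted log2 differences of the 10 ran from -0.97 to -0.45 with it and from -0.68 to -0.27 without it.

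**Figure D3:**
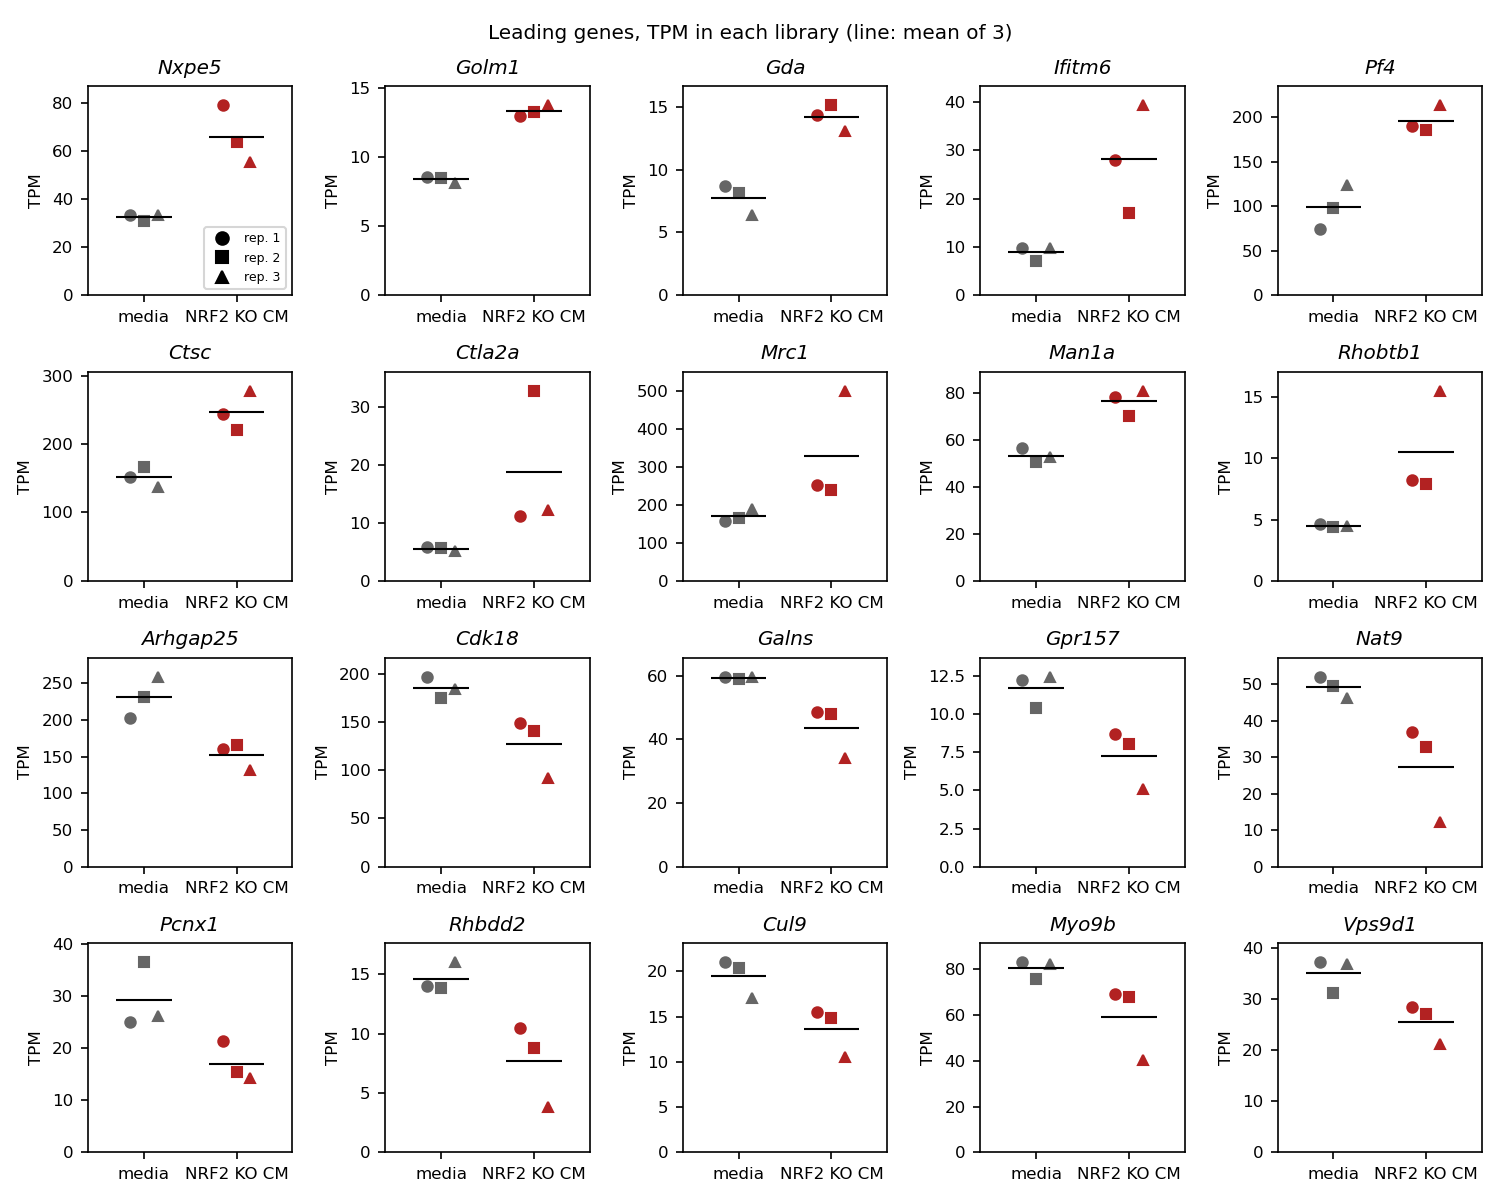
TPM (vertical axes, from 0) of the 10 genes that lead in the higher direction (upper panels) and the 10 that lead in the lower direction (lower panels), 1 point per library, with lines at the mean of 3. The groups do not overlap in any panel, a condition of the choice, and only Nxpe5 passed the adjusted test.

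No gene of the alternative activation program passed against control media. Of its 25 tested genes, none passed (limma, 0.00732% over all genes), 4 had an unadjusted p under 0.05 in the higher direction and 1 in the lower (4.36% and 7.72% of all genes), and the median log2 fold change was 0.13, or 0.12 without replicate 3. The median over all genes was -0.02. Summed over the list, the level was 1483, 1508 and 1435 TPM in media/vehicle and 1551, 1736 and 1612 TPM in NRF2 KO/vehicle. These sums did not overlap (two-sided exact permutation test, p = 0.1, the smallest that 3 against 3 can give). Mrc1, a member of the list, measured 156.7, 164.4 and 188.3 TPM in media/vehicle and 251.3, 238.1 and 500.1 TPM in NRF2 KO/vehicle. The media means were 1475 TPM for the sum and 169.8 TPM for Mrc1. Above these, the sum rose no more than Mrc1 did in replicates 1 and 3, and by more in replicate 2. On average the sum rose no more than Mrc1 did with replicate 3, but by more without it. The separation of the sums does not by itself show a rise across the list. In WT/vehicle the sum was 7862 to 9006 TPM. The same 25 genes had a median of 2.67 in WT/vehicle and 2.40 in KEAP1 KO/vehicle, and 20 of them passed as higher in each (4.38% and 4.88% of all genes). Without Ccl17, Retnla and Rnase2a, which are listed at 0 in media or NRF2 KO/vehicle throughout, the medians over 22 genes were 0.19, 2.53 and 2.40 for NRF2 KO, WT and KEAP1 KO CM. These comparisons share the media/vehicle libraries, so NRF2 KO/vehicle was also tested directly against the other tumor media. In all, 1449 genes differed from WT/vehicle (10.6%, or 8.45% without replicate 3) and 1234 from KEAP1 KO/vehicle (9.03%, or 7.33% without it). Of the 25 genes of the program, 21 were lower than in WT/vehicle (6.84% of all genes) and 21 lower than in KEAP1 KO/vehicle (6.16%), with medians of -2.0 and -1.98 over the 22 genes.

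Arg1, the arginase that diverts arginine to ornithine, measured 0.0884, 0.301 and 0.128 TPM in media/vehicle and 0.548, 0.0532 and 1.30 TPM in NRF2 KO/vehicle. These groups overlapped. It measured 681.3, 765.0 and 544.1 TPM in WT/vehicle and 947.4, 936.0 and 1121 TPM in KEAP1 KO/vehicle, and the log2 difference of NRF2 KO from WT CM was -8.74 (SE 0.21, adjusted p = 2.5e-16, limma). Retnla, a secreted resistin-like protein, was listed at 0 TPM in all 6 libraries of the comparison, while WT/vehicle had 1990, 1753 and 3262 TPM and KEAP1 KO/vehicle 1504, 1390 and 1883 TPM. Its upstream window, printed above, holds a STAT6-type match, as do 7 of 28 windows of the list (25%) and 5.85% of 32851 windows in all. The chitinase-like Chil3 measured 1.09, 3.87 and 2.31 TPM in media and 0.966, 2.43 and 1.66 TPM in NRF2 KO CM. In WT CM it ranged from 461.1 to 1257 TPM.

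No lectin receptor of the program passed against control media. Mrc1, the mannose receptor CD206, measured 156.7, 164.4 and 188.3 TPM in media/vehicle and 251.3, 238.1 and 500.1 TPM in NRF2 KO/vehicle, without overlap, with a log2 fold change of 0.87 (SE 0.23, unadjusted p = 0.0013, adjusted p = 0.41, limma) and 0.48 without replicate 3. It stayed below its level in WT/vehicle, 1015 to 1306 TPM. Clec10a, a galactose-type lectin, measured 26.4, 27.8 and 27.1 TPM in media and 53.6, 32.3 and 26.8 TPM in NRF2 KO CM, so that replicate 3 lay inside the range of media. Il4ra, the receptor subunit through which interleukin-4 signals, measured 59.2, 56.4 and 63.6 TPM against 76.7, 75.0 and 69.6 TPM. Every NRF2 KO/vehicle library was above every media library. Its log2 fold change was 0.30 with and without replicate 3, and NRF2 KO/vehicle was lower than WT/vehicle by -0.75 log2 units (adjusted p = 0.00042, limma). Stat6 itself measured 143.0, 133.1 and 134.5 TPM against 135.3, 130.2 and 76.0 TPM, with replicate 3 apart.

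**Figure D4:**
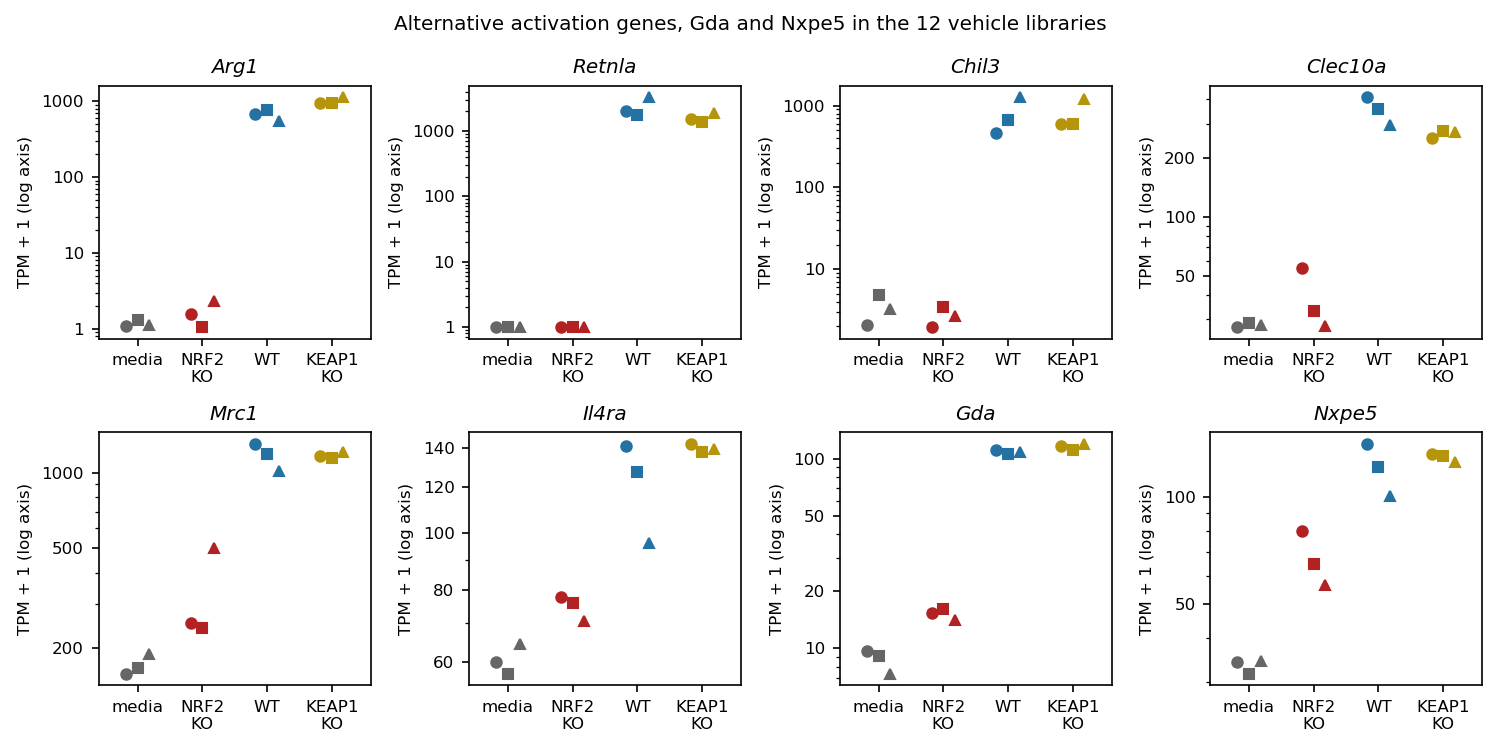
TPM + 1 on log axes for 6 alternative activation genes, Gda and Nxpe5 in the 12 vehicle libraries, 1 point per library (circle, square and triangle for replicates 1, 2 and 3). NRF2 KO/vehicle lies with control media for Arg1, Retnla and Chil3 and between media and the other tumor media for Mrc1, Il4ra, Gda and Nxpe5.

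Classical activation, the inflammatory program of interferon-gamma and microbial products, had 13 of 19 genes above 0 (14 without replicate 3) and a median of 0.11 (0.20 without). At an unadjusted p under 0.05, 1 was higher and 2 lower, or 2 and 0 without replicate 3 (4.36% and 7.72% of all genes, and 1.78% and 1.67% without), and none passed. Tnf, the inflammatory cytokine, measured 12.9, 13.9 and 13.4 TPM in media/vehicle and 10.5, 9.98 and 3.81 TPM in NRF2 KO/vehicle, without overlap. Its log2 fold change was -0.77 (SE 0.25, adjusted p = 0.41, limma), and -0.40 without replicate 3. Cd80, a costimulatory ligand, measured 9.43, 10.3 and 8.51 TPM against 11.4, 13.8 and 12.6 TPM. Il6 was at most 0.491 TPM and Nos2, the inducible nitric oxide synthase, at most 0.223 TPM in the 6 libraries. Hif1a, the oxygen-regulated transcription factor, was higher in value, at 57.7, 63.7 and 49.3 TPM against 67.1, 75.6 and 117.6 TPM, with the widest step in replicate 3.

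Interferon-induced genes were mostly higher in NRF2 KO CM in sign, but none passed. Of 42 tested, 37 had a fitted difference above 0 with replicate 3 and 37 without it, against 47.8% and 48.5% of all genes. At an unadjusted p under 0.05, 11 were higher with replicate 3 and 5 without it (4.36% and 1.78% of all genes). Without overlap, 13 lay above media (5.61% of all genes). Summed over the list, the level was 1551, 1415 and 1350 TPM in media and 1972, 1734 and 1779 TPM in NRF2 KO CM, without overlap (two-sided exact permutation test, p = 0.1). The median log2 difference from media was 0.23, 0.05 and 0.68 in replicates 1, 2 and 3, where the all-gene median was 0, -0.01 and -0.09. The media libraries themselves spread from -0.06 to 0.07, and replicate 2 lay inside that range. The list has a median GC content of 47.0%, below the 50.4% of all genes, and the part of GC content in these values was not tested. Rtp4, an interferon-induced chaperone of membrane receptors, measured 16.5, 15.6 and 16.9 TPM against 29.2, 20.4 and 43.0 TPM. Ifit1, which binds viral RNA, measured 2.49, 1.91 and 2.30 TPM against 3.70, 3.26 and 7.19 TPM. Both were higher than in WT/vehicle, by 1.19 (adjusted p = 0.0085, limma) and 1.33 log2 units (adjusted p = 0.0036, limma). The list as a whole went both ways in the direct tests. Of the 42 genes, 6 were higher and 6 lower than in WT/vehicle (3.76% and 6.84% of all genes). Against KEAP1 KO/vehicle, 6 were higher and 4 lower (2.87% and 6.16%). Trim30a, of the interferon-induced TRIM family, was at 26.2, 26.9 and 26.6 TPM in media and 34.7, 32.4 and 45.7 TPM in NRF2 KO CM.

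The interferon-inducible GTPases, which coat and disrupt the vacuoles of intracellular pathogens, included Iigp1, with replicates close together in both groups. It measured 1.07, 1.17 and 1.1 TPM in media/vehicle and 2.54, 2.53 and 3.53 TPM in NRF2 KO/vehicle. Every NRF2 KO/vehicle library was above every media library, with a log2 fold change of 0.85 (SE 0.15, unadjusted p = 2.6e-05, adjusted p = 0.18, limma) and 0.70 without replicate 3. Gbp7, a guanylate-binding protein, measured 2.35, 2.22 and 3.20 TPM against 5.46, 4.05 and 11.1 TPM, and the other tumor media overlapped it, at 4.74 to 9.45 TPM in WT/vehicle. Tgtp2 measured 3.05, 4.18 and 3.4 TPM against 6.86, 8.42 and 4.08 TPM, and here replicate 3 was the lowest, in contrast to Gbp7. In all, 19 of 20 GTPases had a difference above 0 (18 without replicate 3), 5 were higher at an unadjusted p under 0.05 (4 without), against 4.36% and 1.78% of all genes, and the median was 0.47 (0.20 without). By library the median was 0.32, 0.10 and 0.95 in replicates 1, 2 and 3. The list has a median GC content of 45.7%, below that of all genes, and its part in these values was not tested. Their summed level was 119.0, 114.8 and 120 TPM in media and 153.1, 144.7 and 166.5 TPM in NRF2 KO CM, which did not overlap (two-sided exact permutation test, p = 0.1). Near-identical copies in this family, such as Tgtp1 and Tgtp2, share reads, so their single values are uncertain. The response element marked in the Gbp7 window is present in 10 of 12 GTPase windows (83.3%) and 19 of 37 windows of the interferon-induced genes (51.4%), against 2.98% of all windows.

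Genes of G2/M and mitosis leaned higher in all 3 NRF2 KO/vehicle libraries. Of 40 genes, all tested, 38 had a difference above 0 (39 without replicate 3), 22 were higher at an unadjusted p under 0.05 (4 without), against 4.36% and 1.78% of all genes, and none passed the adjusted test. The median log2 difference was 0.22, 0.40 and 0.92 in replicates 1, 2 and 3, while the media libraries themselves spread from -0.14 to 0.17. Summed over the list, the level was 482.6, 520.3 and 636.6 TPM in media and 638.0, 758.7 and 896.9 TPM in NRF2 KO CM. The lowest NRF2 KO library was thus just above the highest media library (two-sided exact permutation test, p = 0.1). Depdc1a, needed for mitotic progression, measured 1.58, 1.87 and 2.40 TPM against 3.26, 3.75 and 10.3 TPM. Tpx2, which activates Aurora A on the spindle, measured 12.2, 13.7 and 15.3 TPM against 16.3, 21.4 and 39.0 TPM. Cdk1 overlapped between the groups, at 48.9, 53.5 and 74.1 TPM against 66.3, 78.7 and 49.7 TPM, and replicate 3 was its lowest NRF2 KO library. The list has a median GC content of 45.7%, whose part in the values of replicate 3 was not tested. WT/vehicle and KEAP1 KO/vehicle had medians of 0.22 and 0.64 for the same genes. Tested directly, 1 of 40 passed as higher in NRF2 KO CM than in WT CM, a share under the 3.76% of all genes. Of DNA replication genes, 23 of 40 had a difference above 0 and the median was 0.11. The Depdc1a window holds both a cell cycle homology match and a CCAAT match. The first was in 13 of 37 windows of the mitotic list (35.1%) against 16.0% of all windows, and the second in 28 (75.7%) against 33.8%.

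MHC class II genes leaned the other way. Of 14 tested genes, 2 had a difference above 0 (4 without replicate 3), and the median was -0.35, or -0.33 without it. At an unadjusted p under 0.05, 2 were lower (1 without replicate 3), against 7.72% and 1.67% of all genes, 5 lay below media without overlap (7.74% of all genes) and none passed the adjusted test. Summed over the list, the level was 7173, 7865 and 8100 TPM in media and 6459, 5804 and 6231 TPM in NRF2 KO CM, without overlap (two-sided exact permutation test, p = 0.1). Most of each sum was the protease Ctss, given below, so the separation does not by itself show a fall across the list. The 3 NRF2 KO/vehicle libraries had medians of -0.17, -0.43 and -0.41. Against media, the list had medians of 0.15 in WT/vehicle and -0.12 in KEAP1 KO/vehicle. Tested directly, 3 of the 14 were lower than in WT/vehicle and 2 lower than in KEAP1 KO/vehicle (6.84% and 6.16% of all genes). H2-Aa, a class II alpha chain, measured 272.0, 286.8 and 283.5 TPM in media/vehicle and 235.2, 161.7 and 140.6 TPM in NRF2 KO/vehicle, without overlap (log2 fold change -0.68, unadjusted p = 0.011, adjusted p = 0.41, limma). It was as low in KEAP1 KO/vehicle, at 152.7, 140.1 and 232.9 TPM (log2 difference of NRF2 KO from KEAP1 KO CM 0.03, adjusted p = 0.95, limma). Its partner H2-Ab1 measured 220.2, 202.8 and 212.0 TPM against 184.6, 127.5 and 358.1 TPM, so that replicate 3 was the highest where it was the lowest for H2-Aa. Ctss, the protease that trims the invariant chain, measured 5243, 5966 and 6071 TPM against 4769, 4625 and 4595 TPM. H2-DMb1, which loads peptides, was at 50.2, 50.8 and 60.2 TPM against 47.5, 40.8 and 32.4 TPM and was lower than in WT/vehicle by -1.11 log2 units (adjusted p = 0.0037, limma). Batf3, a transcription factor of dendritic cells, measured 9.72, 8.76 and 9.95 TPM in media and 5.1, 6.97 and 2.51 TPM in NRF2 KO CM, and 49.1 to 61.0 TPM in WT CM. Itgax, an integrin of dendritic cells that many macrophages also express, measured 146.0, 173.9 and 269.0 TPM against 122.1, 151.2 and 103.3 TPM. Of 9 dendritic markers 6 were tested, and 3 of these had a difference above 0, with a median of 0.03 (0.12 without replicate 3). The summed dendritic markers, mostly Itgax, were 156.9, 184.7 and 280.3 TPM in media and 129.3, 160.7 and 107.6 TPM in NRF2 KO CM. These sums overlapped (two-sided exact permutation test, p = 0.2). The defining genes Flt3 and Clec9a were at most 0.239 and 0.304 TPM in the 6 libraries. In bulk RNA, fewer cells of a type and less RNA per cell cannot be told apart, and the part of such cells in the class II values was not tested.

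No sterol or fatty acid gene passed against control media. For cholesterol synthesis, 16 of 24 genes had a difference above 0 with replicate 3 and 22 without it, against 47.8% and 48.5% of all genes. In each fit 6 were higher at an unadjusted p under 0.05 (4.36% and 1.78% of all genes). The median log2 difference was 0.18, 0.26 and 0.02 in replicates 1, 2 and 3, and that of replicate 3 lay inside the -0.05 to 0.05 of the media libraries. The median was 0.12 (0.19 without), where WT/vehicle had 0.70 with 17 genes called higher and KEAP1 KO/vehicle 0.95 with 20 (4.38% and 4.88% of all genes). Tested directly, 13 of the 24 were lower than in WT/vehicle and 20 lower than in KEAP1 KO/vehicle (6.84% and 6.16% of all genes). Fdft1, the squalene synthase, measured 17, 18.2 and 16.9 TPM in media/vehicle and 23.2, 25.6 and 19.9 TPM in NRF2 KO/vehicle, without overlap. Stard4, a sterol transfer protein, measured 16.3, 17.6 and 19.3 TPM against 20.5, 22.5 and 23.2 TPM, and 35.3 to 37.5 TPM in KEAP1 KO/vehicle. Among the fatty acid genes, Fads2, the delta-6 desaturase, measured 11.9, 12 and 9.80 TPM against 19.0, 25.2 and 21.8 TPM. Scd1, the delta-9 desaturase, measured 20.8, 17.8 and 13.1 TPM against 26.1, 32.5 and 25.0 TPM, and the elongase Elovl6 5.26, 5.36 and 4.51 TPM against 7.05, 8.70 and 7.86 TPM. These 3 did not overlap and replicate 3 lay within its group, yet each adjusted p was 0.41 (limma). Over 17 fatty acid genes, 11 had a difference above 0 (14 without replicate 3), with a median of 0.14 (0.16 without). The regulators overlapped between the groups. Srebf1 measured 56.8, 57.4 and 68.2 TPM against 57.2, 62.4 and 39.5 TPM, and Srebf2 83.3, 71.5 and 79.0 TPM against 83.2, 88.9 and 71.2 TPM.

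Genes of LXR and cholesterol efflux had 2 of 14 differences above 0 (3 without replicate 3) and a median of -0.29 (-0.16 without). By unadjusted p under 0.05, 1 was higher and 2 were lower (4.36% and 7.72% of all genes), and neither direction had any without replicate 3. Abca1, the cholesterol exporter, measured 42.4, 42.3 and 39.8 TPM in media/vehicle and 36.1, 39.5 and 33.5 TPM in NRF2 KO/vehicle. It was much lower in WT CM, at 18.4 to 20.3 TPM, and NRF2 KO/vehicle was higher than WT/vehicle by 0.80 log2 units (adjusted p = 6.0e-06, limma). The 2 members above 0 in the fit with replicate 3 were Apoc2 and Lpcat3, both without overlap. Apoc2, the cofactor of lipoprotein lipase, measured 86.5, 75.3 and 100.2 TPM against 146.9, 114.4 and 142.3 TPM, and it was higher than in WT/vehicle (log2 difference 1.32, adjusted p = 0.0027, limma).

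The transcript of NRF2 itself did not separate the groups. The knockout was made in the LL2 cells, whose RNA was not sequenced here, so Nfe2l2 in the macrophages does not check it. Nfe2l2 measured 271.5, 266.9 and 230.7 TPM in media/vehicle and 286.2, 242.2 and 459.0 TPM in NRF2 KO/vehicle, and its log2 fold change was 0.31 with replicate 3 and 0.00 without it. Of 30 NRF2 target genes, 7 had a difference above 0 in each fit, and the median was -0.13 (-0.09 without replicate 3). At an unadjusted p under 0.05, 2 were higher and 10 lower (4.36% and 7.72% of all genes). Without replicate 3 the counts were 1 and 1 (1.78% and 1.67%). Srxn1, the sulfiredoxin, was the lower one in both, at 86.2, 92.0 and 114.7 TPM against 69.3, 75.9 and 46.7 TPM. Gsta4, a glutathione transferase, was the higher one, at 1.77, 2.07 and 0.476 TPM against 5.00, 3.42 and 5.18 TPM. Keap1 measured 38.3, 35.8 and 36.1 TPM against 39.1, 39.3 and 15.1 TPM, and Nqo1, a quinone reductase, 2.63, 2.51 and 4.96 TPM against 3.0, 3.7 and 2.16 TPM. Hmox1, heme oxygenase 1, stayed at 364.8 to 381.8 TPM in media and 376.9, 367.8 and 293.5 TPM in NRF2 KO CM.

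Chemokines passed in the direct tests with the other tumor media, and none passed against control media. Of 24 tested, 3 were higher and 10 lower than in WT/vehicle (3.76% and 6.84% of all genes). Against media/vehicle, 16 had a difference above 0 (20 without replicate 3), 3 were higher at an unadjusted p under 0.05 (4.36% of all genes) and the median was 0.22 (0.21 without). The summed level was 1396, 1548 and 1332 TPM in media and 1967, 1904 and 1573 TPM in NRF2 KO CM, without overlap (two-sided exact permutation test, p = 0.1). Cxcl5, a neutrophil attractant, measured 8.53, 5.88 and 8.04 TPM in media/vehicle and 24.6, 13.9 and 25.9 TPM in NRF2 KO/vehicle, without overlap (log2 fold change 1.37, SE 0.49, adjusted p = 0.41, limma). It overlapped WT/vehicle, at 9.65 to 22.8 TPM. Ccl12, a monocyte attractant, measured 2.20, 1.59 and 1.22 TPM against 4.22, 2.43 and 6.18 TPM, far under the 48.1 to 162.1 TPM of WT/vehicle (log2 difference -4.37, adjusted p = 7.9e-07, limma). Ccl3 overlapped between media and NRF2 KO CM and was lower in WT CM, at 109.7, 116.0 and 116.6 TPM in media, 122.6, 102.5 and 219.8 TPM in NRF2 KO CM and 32.7 to 49.5 TPM in WT CM (log2 difference 1.70, adjusted p = 7.1e-05, limma). Of 30 C-type lectin and pattern receptors, 26 had a difference above 0 (22 without replicate 3), with a median of 0.28 (0.17 without) and a median GC content of 44.5%. None passed, and 7 were higher at an unadjusted p under 0.05 (4 without replicate 3), against 4.36% and 1.78% of all genes. Tested directly, 9 were higher than in WT/vehicle and 9 higher than in KEAP1 KO/vehicle (3.76% and 2.87% of all genes), while 5 and 4 were lower (6.84% and 6.16%). Clec4n, the fungal receptor dectin-2, measured 22, 24 and 27.0 TPM in media and 67.1, 52.7 and 76.2 TPM in NRF2 KO CM (log2 fold change 1.38, SE 0.41, adjusted p = 0.41, limma). Pilrb1, an activating paired immunoglobulin-like receptor, measured 4.75, 5.92 and 6.09 TPM against 16.9, 13.4 and 12.5 TPM. Unlike Nxpe5 and Gda, Pilrb1 had its lowest values in the other tumor media, 0.899 to 2.64 TPM in WT/vehicle, and NRF2 KO/vehicle was higher than WT/vehicle by 2.37 log2 units (adjusted p = 0.0004, limma).

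**Figure D5:**
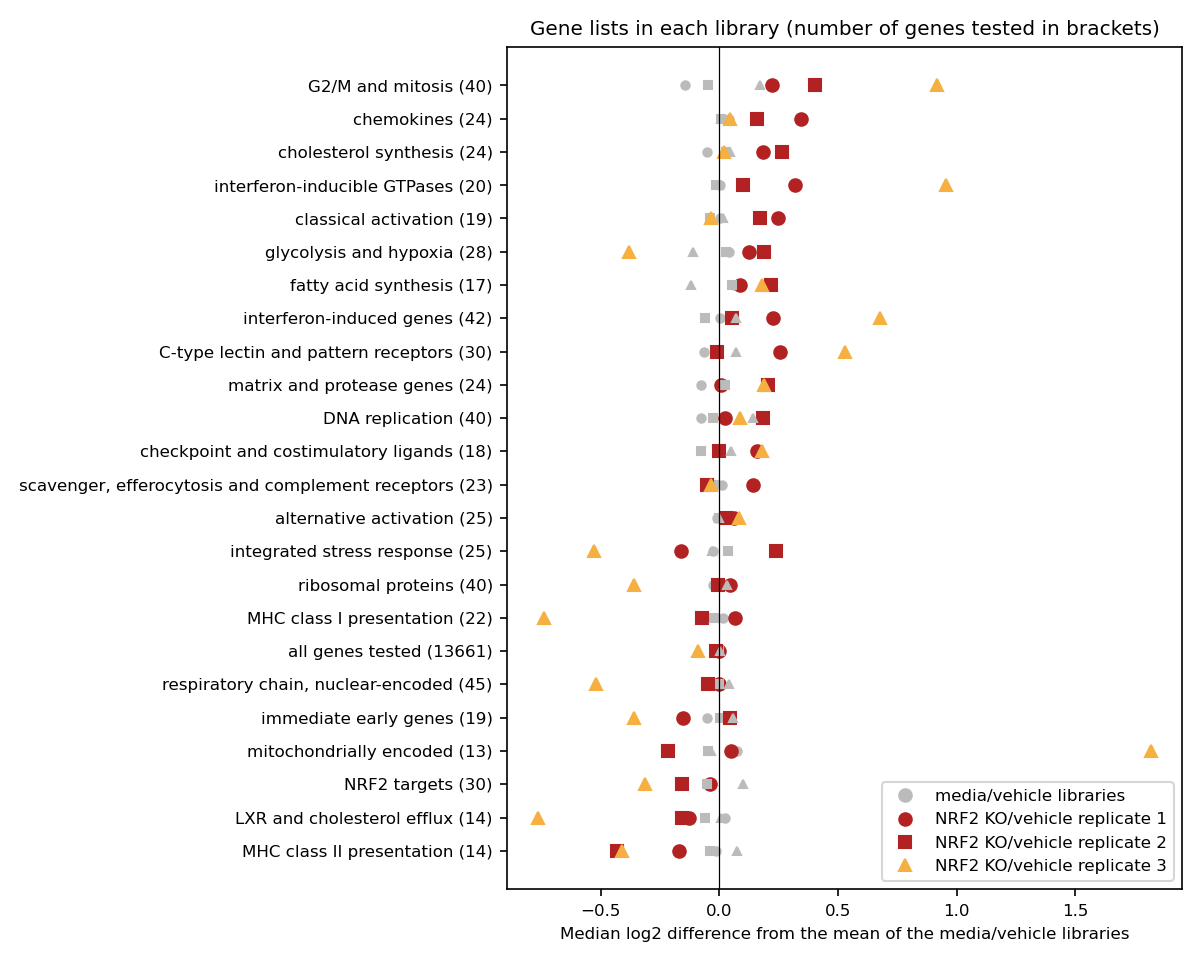
Median log2 difference from the media/vehicle mean (horizontal axis) for each gene list other than the cell markers (rows, number of genes tested in brackets) in the 3 NRF2 KO/vehicle libraries and the 3 media/vehicle libraries. Replicate 3 reaches 0.92 for G2/M and mitosis and 1.82 for mitochondrially encoded genes, and the plotted list medians of replicates 1 and 2 lie between -0.43 and 0.40.

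In several lists the median of replicate 3 lay away from those of replicates 1 and 2, among them those of the mitochondrion, the ribosome and MHC class I. The 13 mitochondrially encoded genes had medians of 0.05, -0.22 and 1.82 in replicates 1, 2 and 3, and their sum was 30780, 26910 and 98700 TPM against 28100 to 30500 TPM in media. The 45 nuclear genes of the respiratory chain had medians of 0.00, -0.05 and -0.52, the 40 ribosomal protein genes 0.04, -0.01 and -0.36, and the 22 MHC class I genes 0.07, -0.07 and -0.74. Genes of LXR and cholesterol efflux had -0.13, -0.16 and -0.76, those of glycolysis and hypoxia 0.13, 0.19 and -0.38, and those of the integrated stress response -0.16, 0.24 and -0.53. Rps14, a protein of the small ribosomal subunit, was at 1852 and 1861 TPM in replicates 1 and 2, inside the 1677 to 1901 TPM of media, and at 168.0 TPM in replicate 3. None of these genes passed the test. Lower at an unadjusted p under 0.05 were 6 respiratory chain genes, 1 ribosomal protein gene and 2 MHC class I genes (7.72% of all genes), and no gene of these 3 lists without replicate 3.

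Markers of other cells that bone marrow cultures can hold varied from library to library, and some of their sums did not overlap between the groups. The 17 fibroblast markers summed to 2880, 3254 and 1957 TPM in media/vehicle and 2257, 4731 and 1686 TPM in NRF2 KO/vehicle, with all 17 tested and none called (none at an unadjusted p under 0.05, and 1 without replicate 3). The 8 endothelial markers, of which 7 were tested, summed to 64.4 to 74.1 TPM in media and 54.1, 160.0 and 45.4 TPM in NRF2 KO CM, and replicate 2 held 36.4 TPM of Cdh5, the VE-cadherin, beside 1.96 and 3.16 TPM. The 7 mast cell and basophil markers, of which 3 were tested, summed to 7.05 to 9.93 TPM in media and 12.62, 23.3 and 10.02 TPM in NRF2 KO CM. These sums did not overlap (two-sided exact permutation test, p = 0.1). Among the markers Mcpt8, a basophil protease, measured 3.81, 3.47 and 2.99 TPM against 9, 15.3 and 5.62 TPM. Kit overlapped between the groups, at 4.63, 6.03 and 2.92 TPM against 2.91, 6.06 and 3.94 TPM, as did Gata2. The 8 erythroid and megakaryocyte markers, of which 2 were tested, summed to 77.8 to 125.8 TPM in media and 191.3, 187.7 and 214.7 TPM in NRF2 KO CM. These sums, mostly Pf4 given above, did not overlap either (two-sided exact permutation test, p = 0.1). Itga2b, the other marker tested, overlapped between the groups. The 9 T and NK cell markers, of which 3 were tested, summed to 13.5 to 15.9 TPM in media and 16.65, 14.97 and 17.41 TPM in NRF2 KO CM, mostly Cd4 at 13.9, 13.1 and 15.8 TPM, while Cd3e was at most 0.19 TPM in the 6 libraries. The 8 epithelial and carcinoma markers, of which 2 were tested, summed to 1.97 to 2.64 TPM in media and 2.60, 4.66 and 1.31 TPM in NRF2 KO CM, mostly Krt19 at 1.96, 3.15 and 1.27 TPM, and Epcam was 0 in NRF2 KO/vehicle. Their part in the differences above was not tested.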

How the data were processed

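RNA was sequenced as poly-A libraries from 24 macrophage samples in 8 groups of 3, grouped by the labels. Per the study's methods and the labels, the authors pseudo-aligned reads with Kallisto to GRCm39 transcripts. The deposited values are TPM, although the table's name speaks of counts: each column sums to 999365 to 999801 over named genes, and 1 line without a gene name (0.0199% to 0.0635% of TPM) was left out. The read depth behind a value is therefore unknown, no counting interval is given, and the planned count test was replaced by limma.

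Genes over 1 TPM in at least 3 libraries were tested with limma 3.58.1 (R 4.3.3) on log2(TPM + 1) after TMM scaling, with all 8 groups in 1 fit (residual df 16, or 15 without NRF2 KO/vehicle replicate 3), a trended prior and Benjamini-Hochberg adjustment at 0.05. A fold change on this scale understates low genes. The steps were tested on simulated data. The 33 gene lists, the members and the comparison were chosen with earlier results of these data known. No p-value was computed for a list, apart from exact permutation tests of summed TPM. Named genes were those past the threshold, then up to 10 per direction by lowest unadjusted p with a mean of at least 5 TPM and no overlap of libraries (predicted and pseudogene names left out), up to 4 members per list by moderated t plus its first 2 members, and 17 genes of the study's themes. A few members were mentioned outside this rule, chosen after their values were seen. GC content was taken from GRCm39 transcripts and upstream windows from RefSeq on GRCm38.p6. Figures used matplotlib 3.10.9. Alternatives were another scaling, no scaling, other pseudocounts and filters, the compared or vehicle groups alone, a replicate block, array weights and leaving out each replicate.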

Additional observations from a re-analysis of the deposited data

Results flagged for a closer look

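Direct tests showed where NRF2 KO/vehicle differed from the other tumor media under the same contrast with media/vehicle. Against WT/vehicle 1449 genes passed (limma, adjusted p under 0.05; 10.6% of those tested), 514 higher and 935 lower (769 and 610 without scaling), and against KEAP1 KO/vehicle 1234 passed (9.03%), 392 higher and 842 lower. Without NRF2 KO/vehicle replicate 3 the counts were 1150 and 997.

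Among the genes fixed by name, Retnla passed both direct tests and is listed at 0 in NRF2 KO/vehicle, so that no fold is given. Of the others, 5 differed from WT/vehicle and 6 from KEAP1 KO/vehicle. Arg1 was lower in NRF2 KO CM by log2 differences of -8.74 against WT (SE 0.21) and -9.27 against KEAP1 KO (SE 0.21). For Chil3 they were -8.17 (SE 0.44) and -8.14 (SE 0.44), for Clec10a -3.31 (SE 0.17) and -2.85 (SE 0.17), and for Mrc1 -1.97 (SE 0.23) and -1.92 (SE 0.23), with adjusted p at most 1.6e-05 (limma). All NRF2 KO/vehicle libraries lay below all WT/vehicle and KEAP1 KO/vehicle libraries for these 4 genes. Srebf1, which drives lipid synthesis genes, differed by -0.44 from WT (SE 0.13, adjusted p = 0.032, limma) and -0.64 from KEAP1 KO (SE 0.13, adjusted p = 0.0025). Without replicate 3 the first was -0.29 (adjusted p = 0.15) and the second -0.49 (adjusted p = 0.011). Nfe2l2 was higher than in KEAP1 KO/vehicle by 0.85 (SE 0.25, adjusted p = 0.036, limma), and by 0.53 without replicate 3 (adjusted p = 0.19).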

How the results depend on the processing

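Against media/vehicle, 0 genes passed without scaling, with the compared groups alone and with the vehicle groups alone (added after seeing the data), 2 without a filter, 3 with the replicate block (Cemip, Nxpe5, Pf4) and 4 with array weights (Gda, Iigp1, Nxpe5, Pgap6). Leaving out 1 replicate gave 0 to 3 genes: 3 without NRF2 KO replicate 1 (Cfap141, Enpp3, Sgo1), 1 without media replicate 3 (Pin4-ps) and 0 without media replicate 1 or 2 or NRF2 KO replicate 2. Without replicate 3 the counts were 0, 0 and 0, then 11, 2 and 3 under the same alternatives, and 0 to 1 when another replicate was also left out. Against WT/vehicle they were 168 with the compared groups, 888 with the vehicle groups, 2550 with the block, 3396 with array weights and 811 (without WT replicate 3) to 2476 (without NRF2 KO replicate 1), also 900 without WT replicate 1. Against KEAP1 KO/vehicle they were 134, 723, 2206 and 3687, and 751 (without KEAP1 KO replicate 1) to 1970 (without NRF2 KO replicate 1), also 1952 without NRF2 KO replicate 2. The compared groups alone leave fewer samples for the spread; the cause of the other moves was not tested. Without scaling the split against WT/vehicle was 769 higher and 610 lower. Replicate numbers were not treated as pairs in the main fit. Same-number deviations of NRF2 KO/vehicle and media/vehicle correlated by 0.16, 0.086 and 0.18, and the highest other-number values were -0.031, 0.16 and -0.034. With WT/vehicle they were 0.082, 0.23 and 0.13, beside -0.014, 0.0031 and -0.048. With KEAP1 KO/vehicle they were 0.074, 0.19 and 0.15, beside 0.022, 0.037 and -0.063. Whether libraries of the same number share a source was not tested.

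Of 1174 recomputed values of single genes, 1144 kept direction and side of the threshold, 8 lost and 4 gained the call, and 18 changed sign. Sign changes with array weights were Nqo1 (0.077), Keap1 (0.041), Ccl3 (-0.0033) and Pdcd1lg2 (-0.062), and Pdcd1lg2 also turned without scaling (-0.00687) and with a pseudocount of 0.1 (-0.027). The others arose from leaving out 1 replicate, over which H2-Ab1 ran from -0.51 to 0.32, Srebf2 from -0.012 to 0.11, Nqo1 from -0.26 to 0.13, Nfe2l2 from -0.0038 to 0.55, Keap1 from -0.56 to 0.048, Il6 from -0.18 to 0.019, Ccl3 from -0.0701 to 0.57, Pdcd1lg2 from -0.17 to 0.16 and Cdh5 from -0.12 to 1.66. Depth is unknown from TPM, so values near 0 carry no stated precision.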

Other observations

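Of 24 matrix and protease genes tested, none passed against media/vehicle (limma) and 13 had a difference above 0, against 47.8% of all genes. In the higher direction 5 had an unadjusted p under 0.05 and in the lower 1 (4.36% and 7.72% of all genes), 7 lay above media without overlap (5.61% of all genes), and the median was 0.04 (0.15 without replicate 3). Nid1, a basement membrane linker, measured 22.5, 21.1 and 20.4 TPM in media/vehicle and 24.1, 44.0 and 42.0 TPM in NRF2 KO/vehicle, and was higher than in WT/vehicle by 1.34 log2 units (adjusted p = 0.00016, limma). Vcan, the proteoglycan versican, measured 6.55, 6.90 and 4.97 TPM against 10.6, 13.3 and 14.9 TPM. F13a1, the A chain of clotting factor XIII, measured 7.86, 10.3 and 9.44 TPM against 13.9, 17.2 and 20.1 TPM.

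Of 18 checkpoint and costimulatory ligands, none passed against media/vehicle (limma) and 14 had a difference above 0 (10 without replicate 3). By unadjusted p under 0.05, 2 were higher and 1 lower (4.36% and 7.72% of all genes), and 3, Cd80 among them, lay above media without overlap (5.61% of all genes). Pdcd1lg2, the PD-1 ligand PD-L2, was at most 0.65 TPM in the 6 libraries and 34.8 to 70.5 TPM in WT/vehicle. Cd274, the PD-1 ligand PD-L1, measured 24.7, 22.8 and 24.7 TPM in media/vehicle and 21.1, 16.1 and 23.3 TPM in NRF2 KO/vehicle, against 39.7 to 58.9 TPM in WT/vehicle (log2 difference -1.28, adjusted p = 0.0075, limma). Icosl, the ligand of ICOS, was in the opposite order, at 6.30, 5.39 and 6.84 TPM, 8.67, 7.36 and 6.16 TPM, and 2.42 to 2.96 TPM (log2 difference from WT/vehicle 1.1, adjusted p = 4.7e-05, limma).

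Another library had low gene detection and a high mitochondrial share. NRF2 KO CM/CDDO-Me replicate 3, which is in no comparison here, listed 16299 genes above 0 TPM with 4.74% mitochondrially encoded, while its group's replicates 1 and 2 had 18489 and 18993 genes with 2.50% and 2.66%.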
